A study of Mus musculus with 12 samples.

Results

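Rlim and 9 genes whose proteins are reported as its substrates or partners were followed by their messenger RNA in mouse embryonic stem cells. The 10 genes, chosen by symbol from knowledge of the RLIM protein, were Rlim, Zfp42 (which encodes REX1), Ldb1, Lmo4, Terf1, Smurf2, Smad7, Sin3a, Stmn1 and Hdac2. They are 10 of the 23336 gene symbols in the deposited counts, and all 10 passed the filter on low counts, as did 12814 symbols in all. The study asked, per its design text, about the state of X chromosome inactivation in female cells with and without Rlim, with male cells as the reference. The undifferentiated groups of libraries came from cells kept in medium with LIF: WT female (line Pgk12.1), female labelled RlimKO, and WT male (line E14). The matching differentiated groups of the same lines had spent 3 days as embryoid bodies without LIF and 6 more days in culture in 7.5% oxygen. Each of the 6 groups held 2 libraries, and the labels give the strain of all of them as C57BL/6. Each genotype was thus 1 cell line, so a difference between genotypes cannot be told apart from a difference between lines. The labels do not give the deleted part of Rlim, nor whether the RlimKO line was derived from Pgk12.1.

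RLIM, also called RNF12, is a RING-H2 ubiquitin ligase encoded on the X chromosome. It marks REX1 for degradation, and REX1 is a repressor of Xist, the noncoding RNA that coats and silences 1 X chromosome in female cells. RLIM was first described as a partner of LIM-domain transcription factors, where it acts on the cofactor LDB1 and recruits the SIN3A and histone deacetylase corepressor. It has also been reported to act on the telomere protein TRF1, the ubiquitin ligase SMURF2, the inhibitory SMAD7 and the microtubule regulator stathmin. These reported effects are on proteins. The counts here measure RNA, and say nothing of ubiquitination or protein level.

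Promoter sequence is shown for the ligase and for REX1, the pair at the centre of the X inactivation model. Both stretches are the 250 bases before the RefSeq start site in GRCm38.p6, from the minus strand and written 5′ to 3′: chrX:103981286-103981535 for Rlim and chr8:43307010-43307259 for Zfp42. Capitals mark a match to GCCATNTT, the core shared by YY1 and REX1 sites (read on the opposite strand), in Rlim, and to the octamer ATTTGCAT of OCT4-family factors in Zfp42.
Rlim: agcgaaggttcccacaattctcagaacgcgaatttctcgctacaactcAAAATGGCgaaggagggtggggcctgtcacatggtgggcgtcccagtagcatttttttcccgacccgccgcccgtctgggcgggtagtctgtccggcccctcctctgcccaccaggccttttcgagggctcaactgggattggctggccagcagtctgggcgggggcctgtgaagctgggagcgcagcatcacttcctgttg
Zfp42: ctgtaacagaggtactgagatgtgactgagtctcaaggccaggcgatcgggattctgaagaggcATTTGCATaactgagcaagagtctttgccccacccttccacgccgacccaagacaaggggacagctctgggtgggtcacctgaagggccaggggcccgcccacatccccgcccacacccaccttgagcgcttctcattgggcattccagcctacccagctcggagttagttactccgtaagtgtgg
The match in Rlim lay 202 to 195 bases before the start, and that in Zfp42 186 to 179 bases before it. Windows ran from 250 bases before to 50 after a start and were read on both strands. GCCATNTT was held by 6.96% of 27025 genes (6.05% of 32851 windows) and by 1 of the 7 members with a window. The octamer, which was chosen after the sequences had been seen, was held by 1.97% of genes (1.74% of windows) and likewise by 1 of the 7. A match describes the letters only. Terf1, Stmn1 and Smad7 had no entry in the table used.

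The libraries held 2011919 to 5401940 counts in genes, of which the ribosomal precursor Rn45s took 6.36% to 67.7%. Differentiated RlimKO-labelled replicate 1 had the highest share and differentiated male replicate 2 the lowest. The latter is also the library whose name lies outside the numbered series of the rest, and the differentiated male pair was the least alike of the 6 (chi-square per degree of freedom 24.8; 1.85 to 2.32 elsewhere). Tests of differentiated male cells are therefore also given from a fit without that library, in which the single differentiated male library left is assumed to vary like the other groups. All 7 pluripotency markers were detected in the undifferentiated libraries (summed 1285 to 1520 CPM, counts per 1000000 of TMM-scaled library size), and their sum was 34.7 to 139 CPM after differentiation. The 7 fibroblast and feeder markers summed to 1.17 to 60.2 CPM before and 2994 to 11647 CPM after it. Fewer cells of a type and less RNA per cell cannot be told apart in such bulk RNA. Separate cultures are not named in the labels, and every p-value here reflects the spread of these libraries alone, which could be technical.

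The 10 genes differed widely in level. Per kilobase of annotated exon, Zfp42 reached 168 ± 16.3 CPM per kb (mean ± SD, n = 2) in undifferentiated male cells and Stmn1 99.8 ± 20.4 in undifferentiated WT female cells, while no library held more than 4.70 CPM per kb of Lmo4. Rlim stood between these, at 17.4 to 33.0 CPM per kb over the 6 group means. Zfp42 also varied most across libraries, with a 56.6-fold range from lowest to highest CPM, followed by Stmn1 with 16.0-fold. Rlim and Smurf2 varied least, at 1.99-fold and 1.93-fold.

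**Figure D1:**
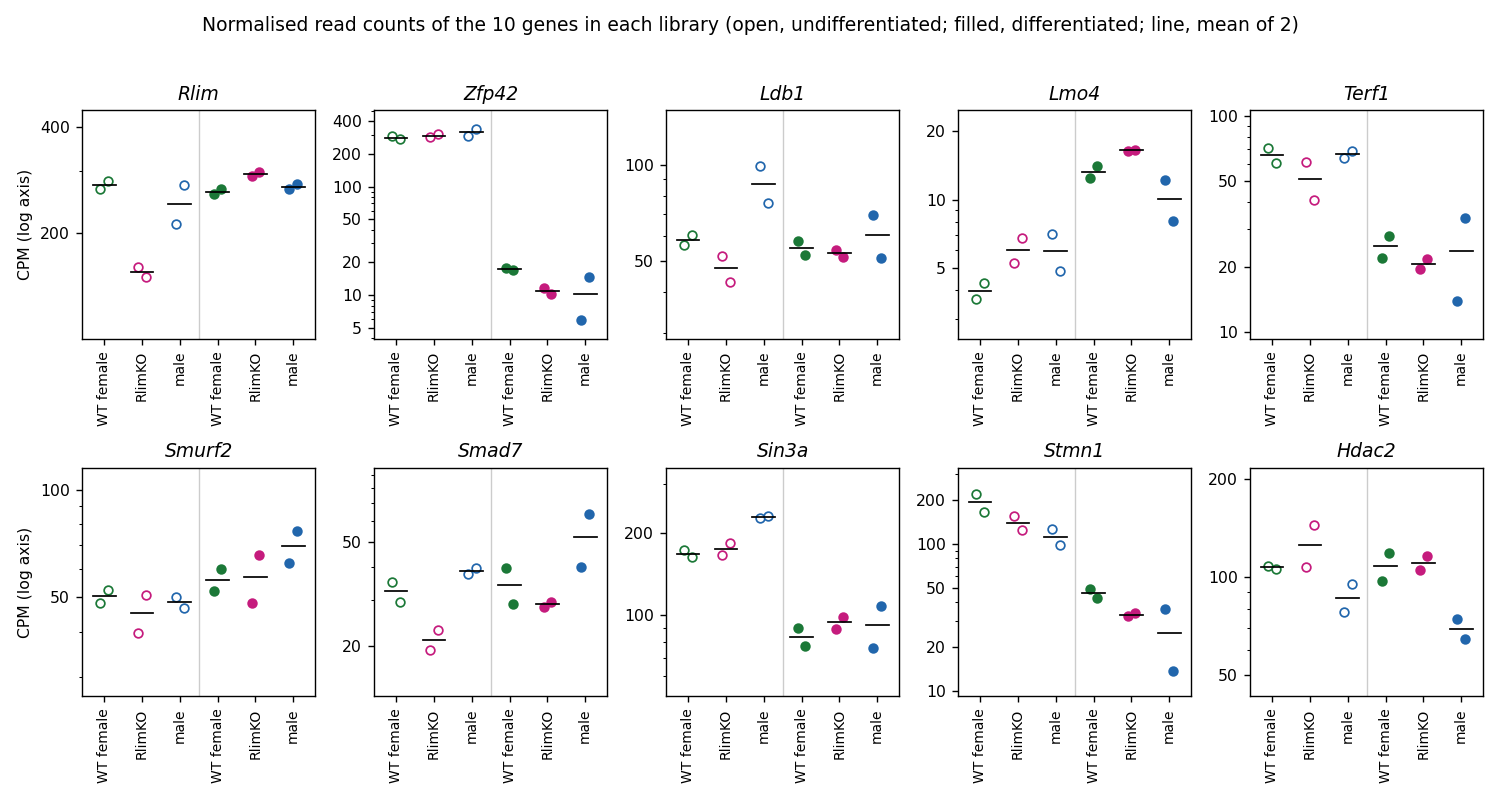
Normalised read counts (CPM, log axis) of the 10 genes in each of the 12 libraries. Open points are undifferentiated and filled points differentiated libraries, and lines are means of 2. The 6 undifferentiated libraries lie between 271 and 338 CPM for Zfp42 and the 6 differentiated ones between 5.97 and 18.0, while Rlim is lowest in the undifferentiated RlimKO-labelled pair, at 150.04 and 160.0.

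Rlim (ENSMUSG00000056537, chrX:103957163-103981284, minus strand, GRCm38) is the ligase and the gene named in the RlimKO label. Its counts were 267 and 282 CPM in undifferentiated WT female libraries, 160.0 and 150.04 in those labelled RlimKO and 212 and 273 in male ones. After differentiation they were 258 and 266 CPM in WT female, 290.1 and 299 in RlimKO-labelled and 267 and 275 in male libraries. The undifferentiated RlimKO-labelled pair was the lowest of all and overlapped no other group, whereas the same line after differentiation was the highest group.

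In undifferentiated cells Rlim was thus at 56.5% of the WT female level in the line labelled RlimKO, a log2 difference of -0.82 ± 0.15 (SE; edgeR's quasi-likelihood test with Benjamini-Hochberg adjustment, adjusted p = 0.0437). That call was lost in 10 of the 12 fits that left out 1 library, where the log2 difference stayed between -0.86 and -0.74. The 2 fits that kept it were those without a differentiated male library. With only the libraries compared 1 member was called in this contrast (3.2% of all genes), as with DESeq2 (0.878%). After differentiation the line labelled RlimKO was 0.17 ± 0.14 above WT female on the log2 scale (95% interval -0.14 to 0.48, edgeR adjusted p = 0.654). Against undifferentiated male cells the line labelled RlimKO was lower in Rlim by -0.65 ± 0.15 (edgeR adjusted p = 0.0135, lost in 4 of the 12 fits without 1 library). The counts show reads in Rlim in every library labelled RlimKO, and no lower level there after differentiation. Reads outside a deleted part would be counted too, and which exons they came from was not examined here. With 2 against 2 libraries an exact permutation test cannot give a two-sided p below 0.33, the value found in both states.

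On differentiation Rlim rose in the RlimKO-labelled line, by 0.93 ± 0.15 on the log2 scale (1.90-fold, edgeR adjusted p = 0.000145), and this call was made in all 19 alternative fits. In WT female cells the change was -0.07 ± 0.14 (95% interval -0.37 to 0.24, edgeR adjusted p = 0.733), and in male cells 0.16 ± 0.14 (-0.15 to 0.46, adjusted p = 0.365), where the 2 states overlapped. The male change was 0.19 without differentiated male replicate 2 (edgeR adjusted p = 0.259). The difference in change between RlimKO-labelled and WT female cells was 0.99 ± 0.21 (edgeR adjusted p = 0.0685), short of the threshold. Against male cells it was 0.77 ± 0.21 (adjusted p = 0.0632). Without differentiated male replicate 2 they were 0.96 and 0.70, and both passed (edgeR adjusted p = 0.000135 and 0.0106), as they did without replicate 1. From highest to lowest, the Rlim group means ran differentiated RlimKO-labelled, undifferentiated WT female, differentiated male, differentiated WT female, undifferentiated male and undifferentiated RlimKO-labelled. The 4 groups in the middle did not differ from one to the next beyond their SD, meaning by more than the sum of the 2 SD. The first and the last exceeded that sum against their neighbour. Here and for the other genes this describes groups of 2 libraries and is not a test.

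Female cells with 2 active X chromosomes are known to carry more X-linked RNA than male cells, so Rlim was set among the 488 tested X-linked genes as a description. Xist and Tsix were left out of these 488. In undifferentiated WT female against male cells the X-linked median was 0.79 and Rlim 0.17 (log2), with 18.7% of X-linked genes below Rlim. For RlimKO-labelled against male cells the median was 0.80 and Rlim -0.65, with 9.03% below. On differentiation the X-linked median was -0.46 in WT female cells, where Rlim was at -0.07. In RlimKO-labelled cells the median was -0.37 and Rlim was at 0.93, above 76.8% of X-linked genes. Rlim thus lay below the X-linked median in both undifferentiated contrasts with male cells and above it in both female differentiation contrasts. The contrasts with male cells share the same male libraries.

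**Figure D2:**
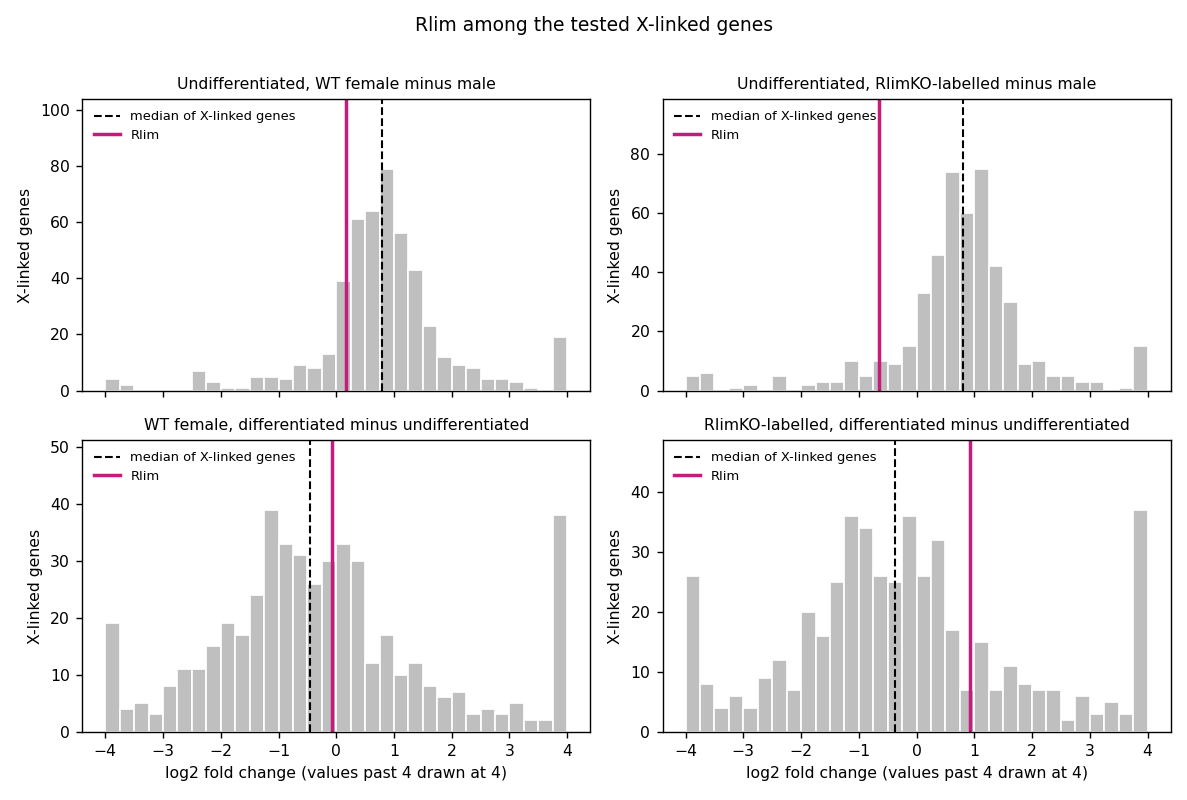
Histograms of the log2 fold change (x axis, values past 4 drawn at 4) of X-linked genes (y axis, number of genes) in 4 contrasts. Rlim is left out of the bars and drawn as a solid line, and the dashed line is the median of the 488 tested X-linked genes. Rlim lies left of the median in the contrasts with male cells, at 0.17 and -0.65, and right of it on differentiation, at -0.07 and 0.93.

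Zfp42 (ENSMUSG00000051176, chr8:43295063-43306980, minus strand) encodes REX1, the substrate of RLIM in X inactivation and a marker of naive pluripotency. Undifferentiated libraries held 289 and 271 CPM in WT female, 287 and 303 in RlimKO-labelled and 295 and 338 in male cells. Differentiated libraries held 18.0 and 17.2, 11.7 and 10.2, and 5.97 and 14.7 CPM in the same order. The states were far apart in every line, and the undifferentiated lines did not differ from their neighbours in the order of means beyond their SD. After differentiation WT female cells were above RlimKO-labelled ones beyond the SD.

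Zfp42 fell on differentiation in all 3 lines: by 3.99 ± 0.26 on the log2 scale in WT female (15.9-fold, edgeR adjusted p = 3.28e-08), by 4.77 ± 0.29 in RlimKO-labelled (27.2-fold, adjusted p = 1.25e-08) and by 4.84 ± 0.27 in male cells (28.6-fold, adjusted p = 4.49e-09). Without differentiated male replicate 2 the male value was -5.66. Between the undifferentiated RlimKO-labelled and WT female lines Zfp42 differed by 0.07 ± 0.22 (95% interval -0.40 to 0.54, edgeR adjusted p = 0.966). In differentiated cells both RlimKO-labelled libraries lay below both WT female ones, with a difference of -0.71 ± 0.31 that did not pass the test (edgeR adjusted p = 0.305), although it did when either differentiated male library was left out (edgeR adjusted p = 0.0198 without replicate 2). The pluripotency markers moved the same way, at 138 and 139 CPM in differentiated WT female libraries, 52.9 and 61.1 in RlimKO-labelled and 34.7 and 79.3 in male ones, and their part in the Zfp42 values was not tested. Xist, which REX1 represses, had 1091 and 1083 CPM in differentiated WT female libraries and 1158 and 1086 in RlimKO-labelled ones, against 115 and 92.0, and 144 and 158, before differentiation. It rose in both lines, by 3.39 ± 0.19 and 2.89 ± 0.19 (edgeR adjusted p = 9.73e-09 and 2.59e-08). Male libraries had 53.1 and 50.7 CPM of Xist before and 6.20 and 3.22 after.

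Ldb1 (ENSMUSG00000025223, chr19:46031570-46045214, minus strand) encodes the cofactor that bridges LIM-domain factors. Its exons share 177 bases (3.84%) with Pprc1 on the other strand, and the strand setting of the counting is not given in the sources used here, so a small part of its reads is uncertain. Ldb1 stood at 56.2 and 60.5 CPM in undifferentiated WT female, 52.0 and 43.1 in RlimKO-labelled and 98.8 and 75.8 in male libraries. Differentiated libraries had 58.0 and 52.2, 54.2 and 51.7, and 69.6 and 51.1 CPM. Undifferentiated male cells were the highest group and overlapped no other, but no neighbours in the order of group means differed beyond their SD.

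The RlimKO-labelled line had less Ldb1 than the male line when undifferentiated, at 54.4% of it (log2 difference -0.88 ± 0.20, edgeR adjusted p = 0.0137). This call was lost without either undifferentiated RlimKO-labelled library or without undifferentiated male replicate 1, with adjusted p up to 0.23. Against WT female cells the difference was -0.30 ± 0.21 (95% interval -0.75 to 0.14, edgeR adjusted p = 0.691). In male cells Ldb1 fell by 0.54 ± 0.19 on differentiation (edgeR adjusted p = 0.0254), a call lost without differentiated male replicate 2, where it was -0.25 (adjusted p = 0.217), and also without undifferentiated male replicate 1 and by DESeq2.

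Lmo4 (ENSMUSG00000028266, chr3:144188530-144205220, minus strand), a LIM-only protein that binds LDB1, was the least abundant of the 10, with 7 to 75 reads in a library. Its counts were 3.68 and 4.29 CPM in undifferentiated WT female, 5.25 and 6.82 in RlimKO-labelled and 7.06 and 4.85 in male libraries. They were 12.4 and 14.0, 16.5 and 16.6, and 12.2 and 8.06 CPM after differentiation. Every differentiated library lay above every undifferentiated one, and differentiated RlimKO-labelled cells were above the next group beyond the SD.

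Lmo4 rose on differentiation in WT female cells by 1.72 ± 0.39 on the log2 scale (3.29-fold, edgeR adjusted p = 0.00217) and in RlimKO-labelled cells by 1.43 ± 0.37 (2.70-fold, adjusted p = 0.00505, lost at 0.0583 without undifferentiated RlimKO-labelled replicate 1). In male cells the difference was 0.77 ± 0.34 (edgeR adjusted p = 0.0679), and without differentiated male replicate 2 it was 1.14 (adjusted p = 0.00695). The changes in WT female and male cells differed by 0.95 ± 0.52 (95% interval -0.17 to 2.07, edgeR adjusted p = 0.42; 0.57 and 0.61 without that library), so a smaller rise in male cells is not shown.

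Terf1 (ENSMUSG00000025925, chr1:15805646-15844052, plus strand) encodes TRF1, which coats telomeric DNA as part of shelterin. Undifferentiated libraries had 70.9 and 60.5 CPM in WT female, 61.3 and 40.9 in RlimKO-labelled and 63.9 and 68.6 in male cells. Differentiated ones had 22.1 and 27.8, 19.7 and 21.7, and 14.0 and 33.5 CPM. All undifferentiated libraries lay above all differentiated ones, and within a state the order of the lines did not exceed their SD.

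Terf1 fell on differentiation in each line, by 1.40 ± 0.31 in WT female (edgeR adjusted p = 0.00201), 1.28 ± 0.34 in RlimKO-labelled (adjusted p = 0.00592) and 1.43 ± 0.30 in male cells (adjusted p = 0.000997). The male value was -2.18 without differentiated male replicate 2, the library with 33.5 CPM. Between the undifferentiated RlimKO-labelled and WT female lines the difference was -0.37 ± 0.31 (95% interval -1.04 to 0.30, edgeR adjusted p = 0.762).

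Smurf2 (ENSMUSG00000018363, chr11:106820066-106920715, minus strand) encodes a ubiquitin ligase of SMADs and their receptors. It was the most even of the 10 genes, at 48.3 and 52.4 CPM in undifferentiated WT female, 39.7 and 50.7 in RlimKO-labelled and 50.1 and 46.7 in male libraries. After differentiation it had 52.3 and 59.9, 48.3 and 65.8, and 62.4 and 76.8 CPM. The male states did not overlap and the female ones did, and no neighbours in the order of the 6 means differed beyond their SD.

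Smurf2 rose in male cells by 0.53 ± 0.19 (edgeR adjusted p = 0.0285), or 0.43 without differentiated male replicate 2 (adjusted p = 0.0442). That call was lost without either undifferentiated male library. In the female lines the values were 0.15 ± 0.20 in WT and 0.35 ± 0.20 in RlimKO-labelled cells (edgeR adjusted p = 0.554 and 0.178), and the change did not differ from the male one by test (adjusted p = 0.563 and 0.782; 0.571 and 0.866 without differentiated male replicate 2).

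Smad7 (ENSMUSG00000025880, on chromosome 18), the inhibitory SMAD that brings SMURF ligases to receptors, was lowest in undifferentiated RlimKO-labelled libraries, at 19.3 and 23.0 CPM. WT female libraries had 35.2 and 29.6 and male ones 37.5 and 39.7. Differentiated libraries had 39.7 and 28.9 in WT female, 28.2 and 29.5 in RlimKO-labelled and 39.9 and 63.9 in male cells. The undifferentiated RlimKO-labelled pair overlapped no other group, and it differed from the next group beyond the SD.

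The difference between undifferentiated RlimKO-labelled and WT female cells was -0.60 ± 0.28 on the log2 scale for Smad7, which did not pass (edgeR adjusted p = 0.492). In differentiated cells Smad7 was lower in the RlimKO-labelled than in the male line, by -0.86 ± 0.24 (edgeR adjusted p = 0.0329). Without differentiated male replicate 2, the library with 63.9 CPM, this was -0.49 (adjusted p = 0.128), and the call was lost. It was also lost without undifferentiated male replicate 2, without either differentiated RlimKO-labelled library and by DESeq2. With only the libraries compared it was lost too, where 0.0862% of all genes were called. The same contrast before differentiation was also -0.86 ± 0.26 (edgeR adjusted p = 0.0524).

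Sin3a (ENSMUSG00000042557, chr9:57072040-57128366, plus strand) encodes the scaffold of the SIN3 corepressor. It stood at 172 and 163 CPM in undifferentiated WT female, 165 and 183 in RlimKO-labelled and 226 and 229.9 in male libraries. Differentiated libraries had 89.6 and 77.1, 89.3 and 98.8, and 75.8 and 108 CPM. The states did not overlap, and undifferentiated male cells were above the other undifferentiated lines beyond the SD.

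Sin3a fell on differentiation by 1.003 ± 0.17 in WT female (to 49.9% of the level before, edgeR adjusted p = 0.000259), 0.89 ± 0.18 in RlimKO-labelled (adjusted p = 0.000793) and 1.302 ± 0.17 in male cells (adjusted p = 1.55e-05; -1.53 without differentiated male replicate 2). All 3 calls were made in all 19 alternative fits. Between the RlimKO-labelled and WT female lines Sin3a differed by 0.06 ± 0.17 before (95% interval -0.31 to 0.43) and 0.18 ± 0.17 after differentiation (-0.20 to 0.55), with edgeR adjusted p of 0.964 and 0.714.

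Hdac2 (ENSMUSG00000019777, chr10:36974544-37001889, plus strand), the deacetylase of the same complex, had 108 and 106 CPM in undifferentiated WT female, 107 and 144 in RlimKO-labelled and 78.0 and 95.2 in male libraries. After differentiation it had 97.5 and 119, 105 and 116, and 74.6 and 64.7 CPM. Male libraries were below all female ones in both states, and undifferentiated WT female cells were above undifferentiated male cells beyond the SD.

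In differentiated cells Hdac2 was higher in both female lines than in the male line, by 0.64 ± 0.18 in WT female (edgeR adjusted p = 0.0367) and 0.67 ± 0.18 in RlimKO-labelled cells (adjusted p = 0.0251). These contrasts share the male libraries. Without differentiated male replicate 2 they were 0.54 and 0.55 (adjusted p = 0.0191 and 0.0162). The first call was lost in 7 of the 12 fits without 1 library, with adjusted p up to 0.32, and the second without either differentiated RlimKO-labelled library. Both calls were also lost with only the libraries compared, where 0 of the 10 members were called (0.0414% and 0.0862% of all genes). On differentiation Hdac2 changed by 0.01 ± 0.18, -0.19 ± 0.18 and -0.32 ± 0.18 in WT female, RlimKO-labelled and male cells, none of which passed (edgeR adjusted p = 0.967, 0.405 and 0.137). The male change was -0.17 without differentiated male replicate 2 (adjusted p = 0.408).

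Stmn1 (ENSMUSG00000028832, chr4:134468320-134473843, plus strand) encodes stathmin, which binds tubulin and destabilises microtubules. Its levels were 219 and 164 CPM in undifferentiated WT female, 154 and 124 in RlimKO-labelled and 126 and 97.7 in male libraries, and 48.9 and 42.9, 32.4 and 33.6, and 35.8 and 13.7 CPM after differentiation. In both states the RlimKO-labelled pair lay below the WT female pair without overlap.

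Stmn1 fell on differentiation by 2.06 ± 0.31 in WT female (4.16-fold, edgeR adjusted p = 7.49e-05), 2.07 ± 0.33 in RlimKO-labelled (4.19-fold, adjusted p = 0.000128) and 2.23 ± 0.32 in male cells (4.68-fold, adjusted p = 3.78e-05). Without differentiated male replicate 2, which had 13.7 CPM, the male value was -1.57. The difference between the RlimKO-labelled and WT female lines was -0.47 ± 0.30 before and -0.47 ± 0.33 after differentiation, and neither passed (edgeR adjusted p = 0.665 and 0.558). The second passed when either differentiated male library was left out (edgeR adjusted p = 0.0412 without replicate 2).

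Between the RlimKO-labelled and WT female lines, 1 of 10 members passed in undifferentiated cells, against 0.242% of all 12814 tested genes. This was Rlim, the gene named in the label, and no substrate or partner passed. None of the 10 passed after differentiation, where 2.59% of all genes did, although 1 (Zfp42) was below 0.05 unadjusted. DESeq2 also called none (2.48%), while 2 were called with only the libraries compared (18.8%). The 10 members' median log2 difference was -0.23 before and -0.01 after, beside -0.0117 and -0.0035 for all genes. Libraries did not overlap for 5 members in each state, against 40.7% and 55.4% of all genes. The 95% intervals leave room for differences of up to 1.57 (Lmo4) on the log2 scale, so equal levels are not shown.

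**Figure D3:**
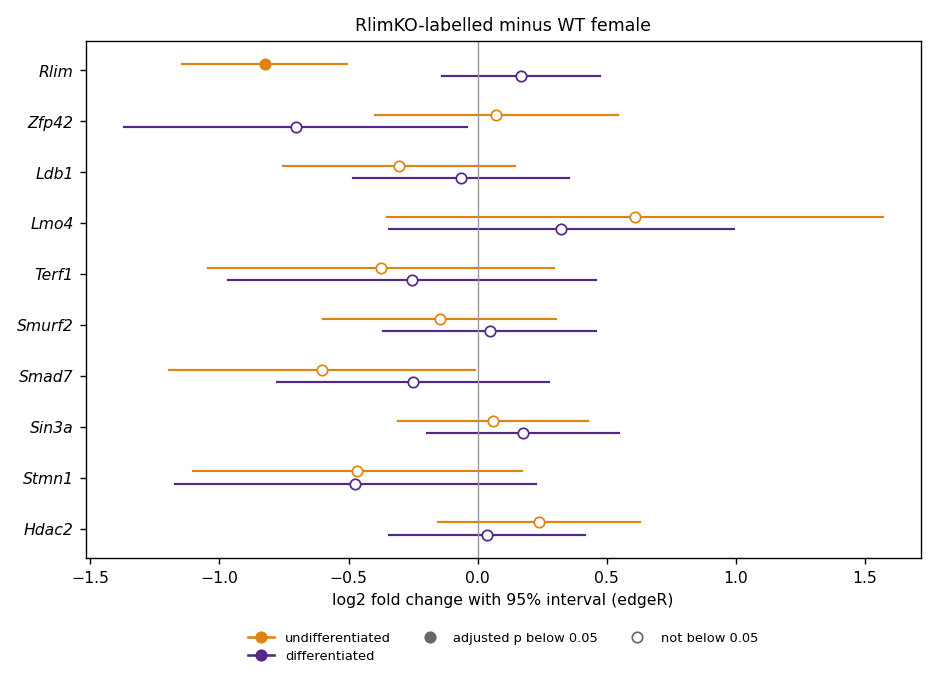
Log2 difference between the RlimKO-labelled and WT female lines (x axis) for the 10 genes, with 95% intervals from edgeR, in undifferentiated (orange) and differentiated (purple) cells. Filled points passed the adjusted p of 0.05: this is Rlim in undifferentiated cells alone, at -0.82, with Zfp42 at 0.07 and -0.71.

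On differentiation 5 of the 10 members passed in WT female cells (48.7% of all genes did), 6 in RlimKO-labelled cells (48%) and 6 in male cells (54%; also 6, and 57.8%, without differentiated male replicate 2). The shares are near those of all genes. Zfp42, Terf1, Sin3a and Stmn1 were lower in all 3 lines, 4 of 10 members against 14.1% of all genes. No member was higher in all 3, which 17.9% of all genes were. When that male library was left out the same 4 were lower in all 3 lines (16.1% of all genes), and Lmo4 was higher in all 3 (20.6%). In the tests of the difference between lines in this change none of the 10 passed, against 0.203% of all genes for RlimKO-labelled and WT female, 1.39% for WT female and male and 2.61% for RlimKO-labelled and male cells. At an unadjusted p under 0.05 these counts were 1, 1 and 2 by edgeR, and DESeq2 called Rlim in the first. When differentiated male replicate 2 was left out, edgeR called Rlim in the first (3.58% of all genes), Zfp42 in the second (9.07%) and Rlim and Sin3a in the third (10.7%). The fibroblast and pluripotency marker sums differed between the states in every line, and their part in these changes was not tested.

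**Figure D4:**
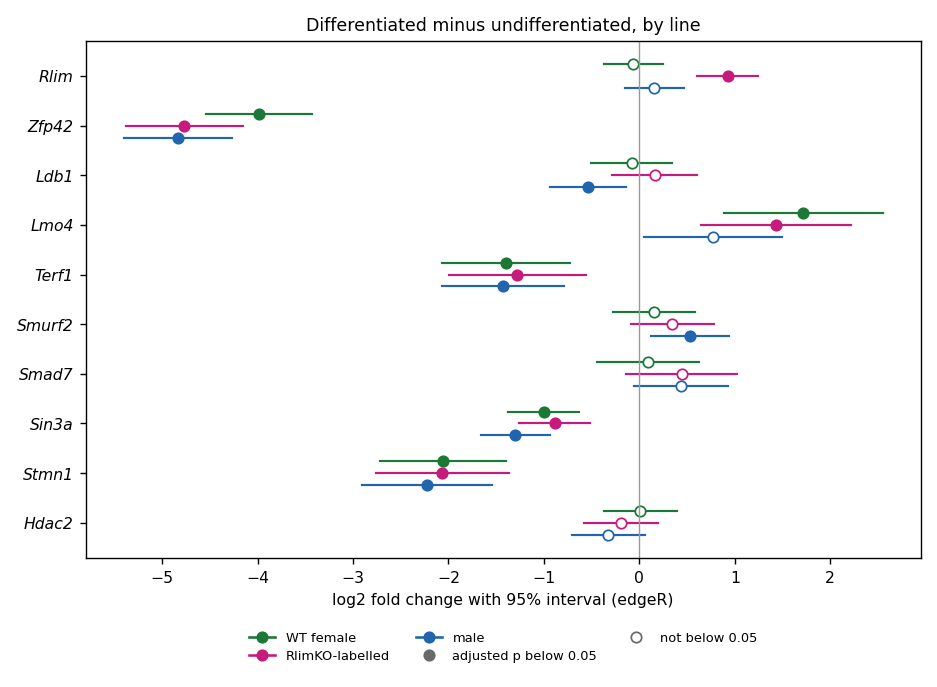
Log2 fold change from undifferentiated to differentiated cells (x axis) for the 10 genes in the 3 lines, with 95% intervals from edgeR. Filled points passed the adjusted p of 0.05. Zfp42 lies at -3.99 to -4.84, Stmn1 at -2.06 to -2.23, and Rlim at 0.93 in the RlimKO-labelled line against -0.07 and 0.16 in the others.

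In contrasts with male cells at most 2 members passed in the fit of all libraries, and the counts moved in other fits. Undifferentiated WT female and male cells differed in 0 of 10 members by edgeR and by DESeq2, where edgeR called 6.63% of all genes, and 3 members (Ldb1, Sin3a and Stmn1) were below an unadjusted 0.05. Differentiated ones differed in Hdac2 alone (8.97%). Without a filter 3 members passed there (8.93%), and with only the libraries compared 0 did (0.0414%). RlimKO-labelled and male cells differed in Rlim and Ldb1 when undifferentiated (10%) and in Smad7 and Hdac2 when differentiated (11.6%). With only the libraries compared these counts were 4 (23%) and 0 (0.0862%). With all libraries, differentiated WT female cells differed from male cells by 0.67 in Zfp42 and 0.02 in Terf1 (edgeR adjusted p = 0.145 and 0.98). In the fit without differentiated male replicate 2 these differences were 1.56 and 0.82. The male library left in that fit was the lower of its pair, at 5.97 and 14.0 CPM against 14.7 and 33.5 in replicate 2. That fit also called 3 members between undifferentiated WT female and male cells (17.1%) and 5 between undifferentiated RlimKO-labelled and male cells (21%).

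Other genes of the same pathways were taken from 6 lists with 72 genes, of which 58 were tested. Among 16 TGF-beta and BMP signalling genes, 10 rose and 1 fell on differentiation in WT female, 13 and 2 in RlimKO-labelled and 11 and 3 in male cells. Of all tested genes 26.5% rose and 22.2% fell in WT female, 26.4% and 21.6% in RlimKO-labelled and 28.7% and 25.4% in male cells. The median log2 change of the 16 was 0.99, 0.87 and 0.66, beside 0.09, 0.10 and 0.05 for all genes. In male cells again 11 rose and 3 fell without differentiated male replicate 2, with a median of 0.75. Smad5, a BMP-responsive SMAD, had 21.0 and 24.8 CPM in undifferentiated and 97.3 and 101 in differentiated WT female libraries and rose by 2.11 ± 0.23 (edgeR adjusted p = 4.41e-06). Smad3, which carries TGF-beta signals, rose there by 1.62 ± 0.26 (adjusted p = 0.000137), and Smad6, like Smad7 an inhibitory SMAD, by 3.76 ± 0.48 (adjusted p = 1.57e-05). Tgfbr2, a TGF-beta receptor, had 0 reads in undifferentiated WT female libraries and 38.1 and 36.6 CPM after differentiation. Against a floor of 3 reads over the undifferentiated group this was 49.9-fold higher. Smurf2 and Smad7, which act on this pathway, differed between states by at most 0.53 in any line.

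Of the 15 SIN3 and HDAC complex genes, 1 rose and 3 fell in WT female, 3 and 2 in RlimKO-labelled and 4 and 4 in male cells, with medians of -0.04, -0.05 and -0.00448. The male counts were 2 and 4 and the median 0.06 without differentiated male replicate 2. Hdac1, the partner deacetylase, fell in all 3 lines by 0.71 ± 0.19, 1.04 ± 0.19 and 0.73 ± 0.18 (edgeR adjusted p = 0.00626, 0.000504 and 0.00342; the male value was -0.54 without that library). Arid4b, a subunit of the complex, rose by 1.09 ± 0.17, 1.16 ± 0.17 and 0.73 ± 0.16 (adjusted p = 8.22e-05, 5.39e-05 and 0.00128; 0.76 in male cells without it). Rbbp7, a histone-binding subunit encoded on the X chromosome, rose in male cells by 1.12 ± 0.18 and RlimKO-labelled cells by 0.46 ± 0.18, and was at -0.04 in WT female cells. The differentiated male libraries were apart, at 254 and 383 CPM, and without the second, replicate 2, the male rise was 0.85. The change of Rbbp7 differed between WT female and male cells by -1.16 ± 0.25 (edgeR adjusted p = 0.0367), or -0.88 without that library (adjusted p = 0.000654). Rbbp4, its paralog, fell in male cells by 0.65 ± 0.14 (-0.54 without it).

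Of the 18 LIM and LDB genes 7 were tested: 4 rose in each line, and 0, 2 and 0 fell in WT female, RlimKO-labelled and male cells. Ssbp3, which protects LDB1 from RLIM, had 27.3 and 25.3 CPM in undifferentiated and 64.3 and 72.6 in differentiated WT female libraries and rose by 1.38 ± 0.21, with 1.77 ± 0.21 and 1.14 ± 0.19 in the other lines (edgeR adjusted p = 8.57e-05, 1.12e-05 and 0.000151; 1.22 in male cells without differentiated male replicate 2). Its relative Ssbp2 rose in all 3 lines by 3.22, 2.51 and 1.64, with 14.7 and 6.98 CPM in the differentiated male libraries and a male rise of 2.19 without the second. The counts of LIM and LDB genes in male cells were the same without it. Ssbp4 went from 29.8 and 34.1 CPM to 8.50 and 5.36 in RlimKO-labelled cells, a fall of 2.28 ± 0.31 (adjusted p = 3.51e-05), and was lower there than in differentiated WT female cells by -1.25 ± 0.31 (edgeR adjusted p = 0.0475). Lhx6, a LIM-homeodomain gene, had 0 reads in both differentiated RlimKO-labelled libraries and 12 in the undifferentiated pair. Against a floor of 3 reads over the differentiated group this was 5.90-fold lower, with the 12 reads taken as exact.

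The 2 tested stathmin relatives of 3 fell in every line. Stmn2, a neuronal stathmin, went from 128 and 106 CPM to 10.8 and 10.3 in WT female cells and fell by 3.46 ± 0.25, 3.82 ± 0.28 and 2.84 ± 0.23 in the 3 lines (edgeR adjusted p = 8.22e-08, 7.81e-08 and 1.59e-07; -3.13 in male cells without differentiated male replicate 2). Stmn3 was low throughout, at most 5.54 CPM, and its male call was lost without that library (adjusted p = 0.0609). Among the 6 other shelterin genes, 2 fell in WT female and 1 in male cells: Pot1a by 0.85 ± 0.24 and 0.72 ± 0.22 in WT female and male cells, and Tinf2 by 0.82 ± 0.25 in WT female cells. Pot1a was at -0.83 in male cells without differentiated male replicate 2, where 1 shelterin gene rose and 2 fell. In RlimKO-labelled cells edgeR called 0 of the 6, with 1 at an unadjusted p under 0.05. Terf2 had 20.2 to 38.1 CPM over the 12 libraries and Acd 7.05 to 17.2.

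In the RLIM and REX1 list 12 of 14 genes were tested, and 4 rose and 2 fell in WT female, 3 and 2 in RlimKO-labelled and 2 and 5 in male cells (2 and 6 without differentiated male replicate 2). Srpk1, of the SR-protein kinase family reported to phosphorylate RLIM, fell by 0.82 ± 0.14, 0.68 ± 0.15 and 0.97 ± 0.14 (edgeR adjusted p = 0.00029, 0.00159 and 4.2e-05; -0.88 in male cells without that library). Yy1, an activator of Xist that competes with REX1, had 94.3 and 96.5 CPM in differentiated WT female libraries, 120 and 108 in RlimKO-labelled and 59.0 and 66.9 in male ones. It was higher in both female lines than in male cells in both states, by 0.59 ± 0.15 in differentiated WT female cells (edgeR adjusted p = 0.0246), and by 0.70 without differentiated male replicate 2 (adjusted p = 0.0018). Tsix, the antisense partner of Xist, had at most 17.9 CPM, and its reads cannot be told apart from those of Xist where they overlap if strands were not separated.

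**Figure D5:**
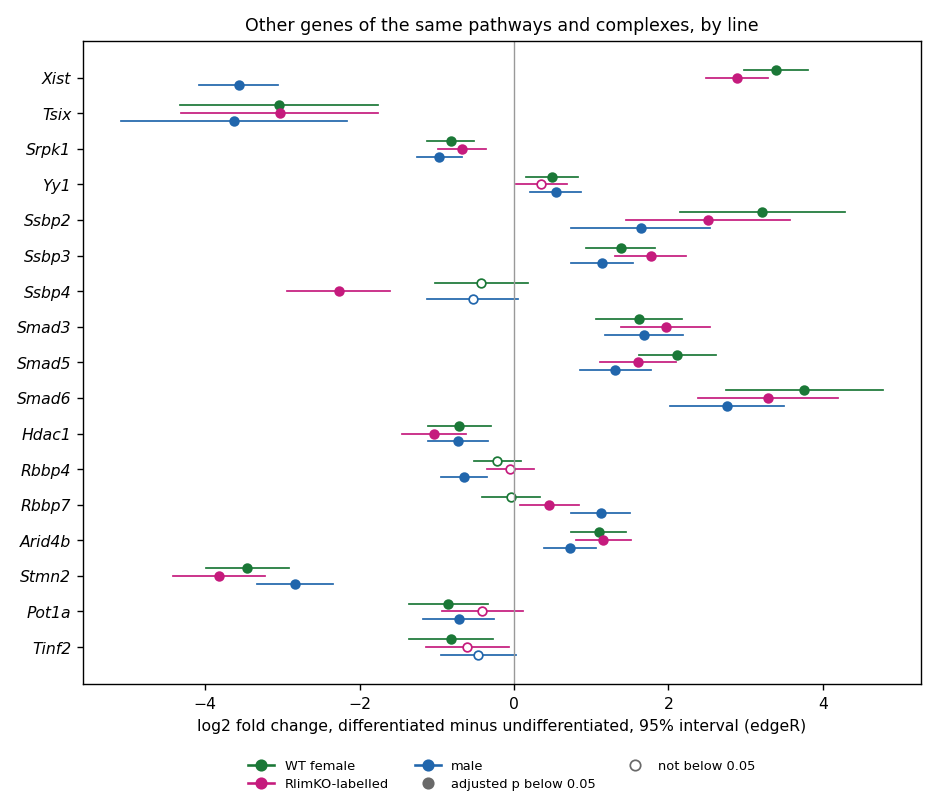
Log2 fold change on differentiation (x axis) of 17 further pathway genes in the 3 lines, with 95% intervals from edgeR; filled points passed the adjusted p of 0.05. Smad3, Smad5, Smad6, Ssbp2, Ssbp3 and Arid4b lie above 0 in all 3 lines, Srpk1, Hdac1, Stmn2 and Tsix below, and Xist at 3.39 and 2.89 in the female lines.

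The genes whose pattern over the 12 libraries was most like that of Rlim, by the root mean square difference in centred log2 CPM, were Vps4b (0.178), Wdr45l (0.181), Ppm1f (0.182), Shprh (0.184) and Scaf8 (0.185). These are genes of small variation, such as Vps4b with an SD of 0.23 against 0.33 for Rlim, and none is X-linked. The nearest to Zfp42 were Pou5f1 (0.293), Esrrb (0.2998), Chchd10 (0.345), Zfp819 (0.349) and Tdh (0.386). Pou5f1 and Esrrb encode pluripotency factors. Pou5f1 had 387 ± 55.9 CPM in undifferentiated WT female cells and 23.8 ± 1.57 CPM after differentiation (mean ± SD, n = 2), a drop close in size to that of Zfp42.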

How the data were processed

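Counts per gene symbol of 12 libraries were used as the authors deposited them. The submitters' processing notes name HTSeq 0.6.1p1 and TopHat2 2.0.12, with the build mm10, beside edgeR 3.10.0 and bcl2fastq 2.16.0.10. Alignment settings, the annotation and the strand setting are not given in the sources used here. Per the labels' protocols, template-switched cDNA was amplified by PCR and tagmented, with no molecular identifiers described. The 5 summary lines were set aside. Of them, reads in no annotated gene were 45.4% to 53.3% of a library.

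edgeR 4.0.16 (R 4.3.3) was used to fit all 12 libraries together with a mean for each group. Genes were filtered with filterByExpr, libraries scaled by TMM, and contrasts tested by quasi-likelihood, with p adjusted by Benjamini-Hochberg over 12814 genes and a threshold of 0.05. SE were derived from the log2 fold change and F. On simulated counts for the undifferentiated RlimKO-labelled and WT female contrast (12814 genes), 28 of 100 genes changed 2-fold and 96 of 100 changed 4-fold were recovered. There were 9 false calls among unchanged genes. The simulation gave all genes the same dispersion and no differences among the other groups, and changed only genes above a minimum mean CPM. Recovery in the real libraries can therefore differ. Alternatives were RLE factors, no Rn45s and Lars2, no filter, DESeq2 1.42.0, only the libraries compared, the replicate number as a block and each library left out. After seeing the data, a fit without differentiated RlimKO-labelled replicate 1 and differentiated male replicate 2 was added, and the pathway lists were also read from the fit without the latter alone.

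The 10 members, the pathway lists and the markers were chosen with earlier results of these data known. Named genes were the members, up to 4 genes of each list with the smallest p in any contrast, Xist and Tsix, and for Rlim and Zfp42 the 5 most similar genes. Gene positions and exon lengths came from GENCODE vM21, and promoters from RefSeq on GRCm38.p6.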

Additional observations from a re-analysis of the deposited data

Results flagged for a closer look

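Both differentiated RlimKO-labelled libraries lay above both undifferentiated ones in Rlim, and both differentiated WT female libraries lay below theirs. In WT female cells the nearest libraries of the 2 states were 266.3 and 266.7 CPM, and the change of -0.07 on the log2 scale (95% interval -0.37 to 0.24, edgeR adjusted p = 0.733) did not pass the test. The difference in change between the female lines was 0.99 (SE 0.21) and did not pass either (edgeR adjusted p = 0.0685).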

How the results depend on the processing

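Of 120 results (10 members in 12 contrasts), 23 passed. Of these, 14 passed in all 19 alternatives and all 23 kept their sign. Of the 97 others, 66 passed in none, and 36 turned sign in at least 1 alternative without passing. A turn of sign was counted as a reversal only with a call, and there was none. With 2 libraries a group and 7 to 75 reads of Lmo4 a library, small differences were not detectable.

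Counts of members called moved as follows, each with the share of all tested genes called in the same fit. Without a filter they were 1 (6.26%; WT female and male, undifferentiated), 3 (8.93%; the same, differentiated), 4 (8.7%; RlimKO-labelled and male, undifferentiated) and 1 (1.05%; difference in change, RlimKO-labelled and WT female). With DESeq2 they were 1 (9.17%) for differentiated RlimKO-labelled and male cells and 1 (0.57%) for that difference in change. With only the libraries compared they were 2 (18.8%) for differentiated RlimKO-labelled and WT female cells, 3 (19.6%) and 0 (0.0414%) for undifferentiated and differentiated WT female and male cells, 4 (23%) and 0 (0.0862%) for RlimKO-labelled and male cells, and 2 (4.5%) for the same difference in change. Without both libraries of extreme Rn45s share, they were 2 (3.13%) for undifferentiated RlimKO-labelled and WT female cells, 3 and 3 (17.2% and 16%) for WT female and male cells, 5 and 1 (21.4% and 14.6%) for RlimKO-labelled and male cells, and 1, 1 and 3 (3.07%, 9.37% and 9.98%) for the differences in change.

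Leaving out 1 library gave 0 to 1 members (0% to 3.1% of all genes) and 0 to 2 (0.0888% to 12.5%) for RlimKO-labelled and WT female cells, undifferentiated and differentiated. In the same order it gave 0 to 3 (1.23% to 17.1%) and 0 to 4 (1.37% to 32.7%) for WT female and male, and 0 to 5 (2.29% to 21%) and 0 to 5 (2.01% to 33.7%) for RlimKO-labelled and male cells. For the differences in change it gave 0 to 2 (0.0148% to 3.61%), 0 to 1 (0.0961% to 14.1%) and 0 to 3 (0.4% to 15%). The highest counts of members and the highest shares of all genes both came without a differentiated male library, so both moved together. Rlim in undifferentiated RlimKO-labelled against WT female cells ranged from -0.861 to -0.744. The cause was not tested.

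Same-numbered replicates correlated at -0.0663 to 0.103 over 15 pairs of groups, so no strong shift shared by replicate number was seen. Pairing without such a shift would not be detected. With the replicate number as a block, the count was 2 (9.4%) for differentiated WT female and male cells and changed by no more than 1.5 times elsewhere. Without Rn45s and Lars2 the median of all genes shifted by -0.101 for differentiation of RlimKO-labelled cells and by -0.116 for the difference in change from male cells. Shifts of like size were seen with both kept, at -0.0969 and -0.120 without a filter, so they are not particular to these 2 genes.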
